A study of Homo sapiens with 6 samples.

Results

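The 34 genes described here encode the enzymes of glycolysis, the transporters that bring in glucose and move lactate, the enzymes that regulate the pathway, and genes controlled by hypoxia-inducible factor (HIF). They were taken by symbol from a fixed list, and all 34 were found among the 20476 genes of the deposited count table. The list holds 17 glycolytic enzymes, 3 regulatory enzymes, 3 transporters, the HIF subunit gene HIF1A and 10 HIF targets outside sugar metabolism. Transcripts were counted in SW620, a human colorectal cancer cell line from a lymph node metastasis. The shECM1 libraries (n = 3) are from cells with a stable short hairpin RNA directed at ECM1, and the shNC libraries (n = 3) from cells with a stable negative control hairpin. ECM1 encodes a secreted extracellular matrix protein, and the study asked how it bears on the chemokine gene CCL20. The hairpin sequences, and whether the stable lines are clones, are not stated by the labels.

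Glycolysis splits glucose into pyruvate in the cytosol, and the lactate dehydrogenases turn pyruvate into lactate. When oxygen falls, HIF1A protein escapes hydroxylation and degradation and pairs with ARNT. The pair binds the core letters ACGTG or GCGTG and switches on glucose uptake, most glycolytic steps, pH control, blood vessel growth and mitochondrial turnover. Many colorectal cancers run glycolysis and lactate export at a high rate even with oxygen present, and there the MYC and growth factor pathways drive the same enzymes.

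Promoter windows show how widely these core letters occur among the genes. Windows from 250 bases before to 50 after each start were taken from RefSeq (build GRCh38.p14), which held entries for 31 of the 34 genes, all but SLC16A1, VEGFA and NDRG1. ACGTG or GCGTG, sought on both strands, was present in at least 1 window of 29 of these 31 genes (93.5%), against 69.9% of the tested genes that have an entry and 52.4% of all genes with one. Per window the share was 67.8% for these 31 genes, 60.5% for tested genes and 48.4% for all. Mean GC content was 64.7% in the windows of these genes, 63.8% in those of tested genes and 57.5% in all. Genes with several starts have more chances of a match, and the palindrome CACGTG counts as 1 match on each strand. The windows of 5 genes are printed, with matches to either strand in capitals. CA9 is the classical HIF target, ANKRD37, ENO2 and ALDOC are among the genes with the lowest fitted log2 fold changes below, and LDHB lay in the opposite direction.
CA9 (chr9:35673678-35673977, plus strand): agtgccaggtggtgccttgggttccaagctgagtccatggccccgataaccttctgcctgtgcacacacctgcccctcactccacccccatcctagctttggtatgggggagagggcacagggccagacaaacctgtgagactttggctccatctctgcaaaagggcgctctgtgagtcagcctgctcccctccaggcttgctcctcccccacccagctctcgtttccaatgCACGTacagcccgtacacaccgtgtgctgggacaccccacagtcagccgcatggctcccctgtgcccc
ANKRD37 (chr4:185396591-185396890, plus strand): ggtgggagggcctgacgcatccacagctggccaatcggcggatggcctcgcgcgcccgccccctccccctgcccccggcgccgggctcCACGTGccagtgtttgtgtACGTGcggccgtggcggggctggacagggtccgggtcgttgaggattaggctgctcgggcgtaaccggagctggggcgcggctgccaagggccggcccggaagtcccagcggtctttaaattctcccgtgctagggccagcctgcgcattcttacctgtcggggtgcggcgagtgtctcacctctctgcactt
ENO2 (chr12:6914330-6914629, plus strand): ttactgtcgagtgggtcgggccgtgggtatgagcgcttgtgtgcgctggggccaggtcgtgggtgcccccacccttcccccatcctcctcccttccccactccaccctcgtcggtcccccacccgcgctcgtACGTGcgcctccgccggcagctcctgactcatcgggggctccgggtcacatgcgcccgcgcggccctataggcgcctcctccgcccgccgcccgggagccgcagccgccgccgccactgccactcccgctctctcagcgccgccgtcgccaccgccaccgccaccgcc
ALDOC (chr17:28576846-28577145, minus strand): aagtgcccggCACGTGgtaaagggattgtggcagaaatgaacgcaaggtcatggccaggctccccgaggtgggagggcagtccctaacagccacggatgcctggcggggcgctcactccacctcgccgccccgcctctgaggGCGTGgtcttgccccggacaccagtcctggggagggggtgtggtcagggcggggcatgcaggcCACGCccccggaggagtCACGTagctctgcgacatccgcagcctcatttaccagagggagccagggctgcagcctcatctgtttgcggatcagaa
LDHB (chr12:21657793-21658092, minus strand): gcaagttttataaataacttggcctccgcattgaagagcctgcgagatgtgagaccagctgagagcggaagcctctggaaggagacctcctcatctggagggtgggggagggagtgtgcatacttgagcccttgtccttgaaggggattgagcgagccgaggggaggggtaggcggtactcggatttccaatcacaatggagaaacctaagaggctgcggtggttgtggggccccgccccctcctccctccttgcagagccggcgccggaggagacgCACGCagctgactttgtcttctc
The windows of CA9, ENO2 and LDHB held 1 match each, that of ANKRD37 held 3 and that of ALDOC held 5. The match of CA9 lies 18 bases before the start, and that of LDHB lies after it. The number of matches was not tested against the fold changes. Of windows not printed, 1 of LDHA (log2 fold change -0.0087) held 6 matches, and that of EGLN3 (-0.32) held 0. A match describes letters only, and binding was not measured.

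Library totals ran from 9881720 to 16813951 counts in shECM1 and from 11792872 to 14781799 in shNC. Levels are given as CPM, each library's counts scaled to a common total after TMM normalisation. As a check of the labels, ECM1 had 14.8, 13.6 and 8.41 CPM in shECM1, against 38.8, 19.0 and 52.3 CPM in shNC. CCL20 stood at 11.5 to 17.5 CPM in shECM1 and at 15.7 to 39.6 CPM in shNC. The columns were matched to the groups by the letters and numbers of their names, and if that reading were wrong every direction would turn round. One control library, shNC replicate 2, stood apart from the other 2 controls. Its log2 CPM correlated across genes at 0.987 to 0.991 with the shECM1 libraries, but at 0.983 and 0.974 with shNC replicates 1 and 3. It was also the lowest control for ECM1, at 19.0 CPM against 38.8 and 52.3 CPM in shNC replicates 1 and 3. For each of the 34 genes whose call changes when it is left out, the value without it is given too. Because shNC replicate 2 was singled out by its values, p-values without it depend on that choice and are no independent evidence. The labels do not say whether separate cultures were used. The p-values therefore reflect the spread among these 6 libraries only, and it may be technical.

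Of 11 epithelial or colorectal markers, 10 passed the count filter, all but CDX1. KRT20 (mean 1.13 CPM in shECM1 and 1.41 in shNC) and LGALS4 (0.86 in shECM1 and 0.79 in shNC) passed at very low levels. Of these 10, 7 had a lower fitted level in shECM1, with a median log2 fold change of -0.27. CEACAM5 was at -0.84 (called lower by DESeq2, adjusted p = 0.00853), KRT19 at -0.46 and EPCAM at 0.14. Summed epithelial marker levels were 11880 to 13230 CPM in shECM1 and 12230 to 18050 CPM in shNC. Of the markers of other cell types, 3 of 8 fibroblast, 2 of 7 immune and 2 of 5 endothelial genes passed the filter, while COL3A1, PDGFRA, PTPRC, CD3E, FCGR3A and KDR had 0 counts in every library. Summed levels were 16.7 to 20.9 CPM in shECM1 and 23.6 to 35.5 CPM in shNC for fibroblast markers. Immune markers summed to 48.1 to 76.9 CPM in shECM1 and 74.1 to 191 CPM in shNC, most of it CD68, and endothelial markers to 8.04 to 9.22 CPM in shECM1 and 9.73 to 12.1 CPM in shNC. The part of these differences in the results below was not tested. In such libraries, fewer cells of a type and less RNA per cell cannot be told apart.

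Across the pathway, 29 of the 34 genes had a lower fitted level in shECM1 than in shNC, against 48.6% of all 12576 genes tested. Their median log2 fold change was -0.29, against 0.01 over all genes, and the values ran from -1.002 in ALDOC to 0.44 in SLC16A1. All 34 passed the count filter. With all 6 libraries, the quasi-likelihood test of edgeR, adjusted by the Benjamini-Hochberg method over all genes, called 0 of the 34 genes (0% of all genes tested were called), and the smallest adjusted p among them was 0.0973, in ENO2. At an unadjusted p under 0.05, 14 of the 34 were lower (14.2% of all genes) and 3 were higher (8.31% of all genes). DESeq2 called 3 of them, ENO2, NDRG1 and ANKRD37, all lower, where it called 6.1% of genes, 5.08% lower and 1.03% higher. With no count filter edgeR called the same 3 and ALDOC, all lower, where it called 3.08% of genes, 2.83% lower and 0.256% higher. Without shNC replicate 2, edgeR called 22 of the 34 genes, 19 lower and 3 higher, where 14.1% of all genes were called lower and 9.73% higher. DESeq2 without that library called 18 lower and 3 higher, where 12.8% of genes were called lower and 8.65% higher.

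**Figure D1:**
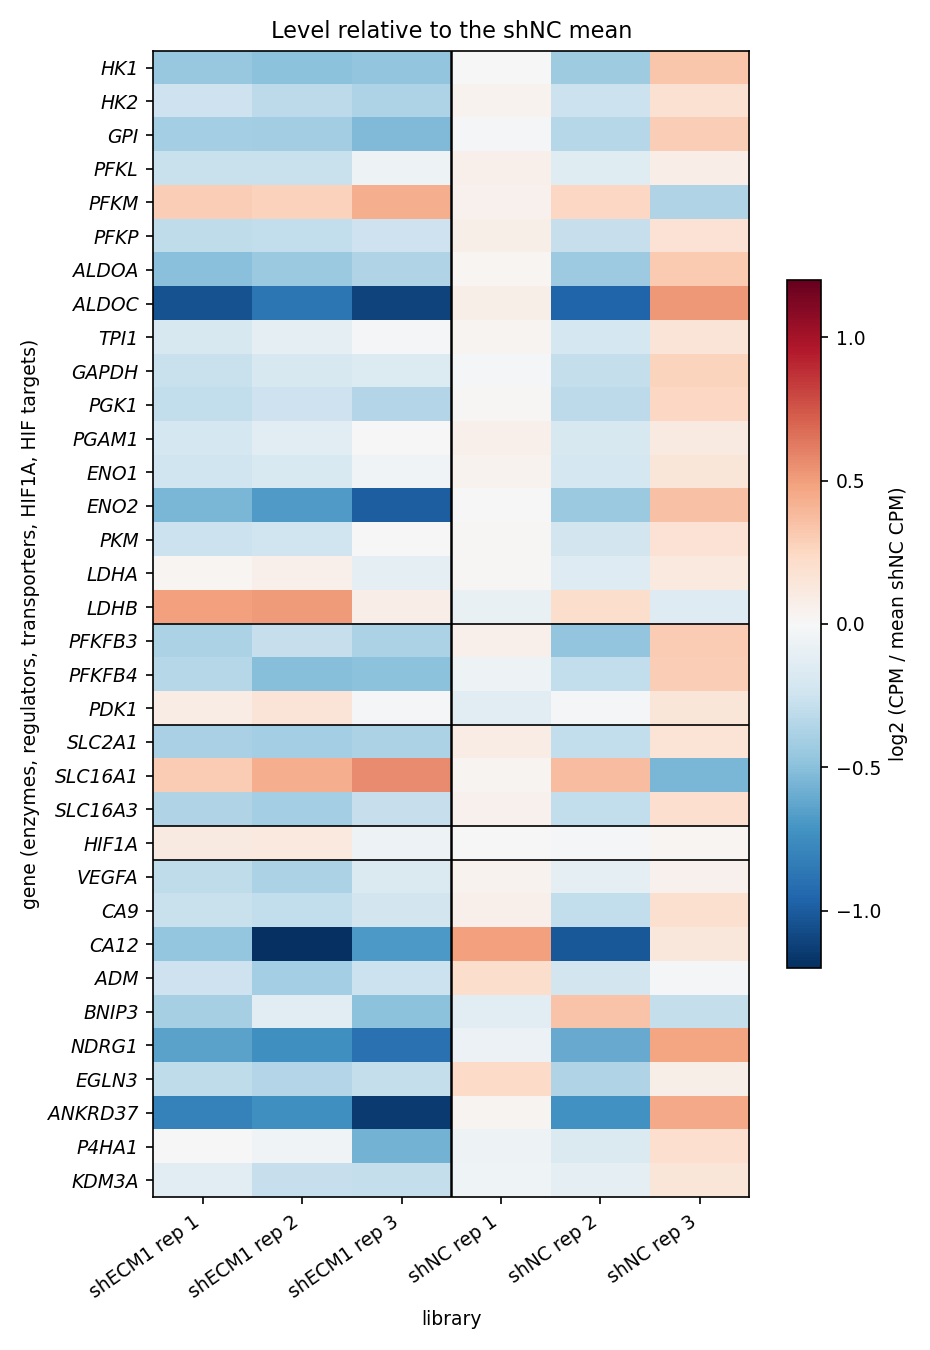
Heat map of the 34 genes (rows, grouped by role) in the 3 shECM1 and 3 shNC libraries (columns), coloured by log2 of the CPM over the mean CPM of shNC, with blue for lower and red for higher. The column of shNC replicate 2 resembles the shECM1 columns in most rows, with ALDOC at -0.96 there.

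How far the groups separated went with the position of shNC replicate 2. In 30 of the 34 genes (88.2%) its log2 level was nearer the shECM1 mean than the mean of shNC replicates 1 and 3, as in 68.1% of all genes tested. It was the lowest of the 3 controls in 29 genes (85.3%, against 39.8% of all genes). All 3 shECM1 libraries lay below both shNC replicates 1 and 3 in 26 genes (76.5%, against 27.5% of all genes). They lay above both in 3 genes (8.82%, against 26.1% of all genes), which were PFKM, LDHB and SLC16A1. Counting all controls, the groups did not overlap in 11 of the 34 genes, 10 lower and 1 higher, where 13.2% of all genes separated lower and 11.2% higher. The spread between controls was the larger in most of these genes, with the SD of CPM greater in shNC in 31 of 34 (54.6% of all genes).

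Glucose enters through SLC2A1, the transporter also called GLUT1. Its level was 2328, 2296 and 2351 CPM in shECM1 replicates 1, 2 and 3, against 3238, 2486 and 3429 CPM in shNC. Every shECM1 library lay below every control, and the 3 knockdown libraries lay within a narrow band. The log2 fold change was -0.39 ± 0.12 (SE; edgeR adjusted p = 0.12), and -0.51 ± 0.090 without shNC replicate 2 (edgeR adjusted p = 0.00226). Lactate leaves through SLC16A3 (MCT4) and passes in either direction through SLC16A1 (MCT1), and these transporters pointed opposite ways. SLC16A3 had 360, 348 and 381 CPM in shECM1, against 481, 377 and 531 CPM in shNC, with shNC replicate 2 inside the shECM1 range. SLC16A1 had 79.0, 86.9 and 94.8 CPM in shECM1, against 65.6, 82.8 and 43.9 CPM in shNC, and there too shNC replicate 2 lay inside the shECM1 range. Without that library edgeR called SLC16A3 lower (-0.46, adjusted p = 0.00523) and SLC16A1 higher (0.68, adjusted p = 0.00918).

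The first steps of glycolysis trap glucose and rearrange it. HK1, the widely expressed hexokinase, averaged 313 ± 4.25 CPM in shECM1 and 433 ± 110.4 CPM in shNC (SD, n = 3 each), and HK2, the inducible hexokinase raised in many tumours, averaged 267 ± 11.5 CPM in shECM1 and 331 ± 49.96 CPM in shNC. GPI, which isomerises glucose phosphate, had 1407, 1391 and 1287 CPM in shECM1, against 1833, 1467 and 2285 CPM in shNC. HK1 and GPI did not overlap between the groups, although shNC replicate 2 stood close to the knockdown in both. Their log2 fold changes were -0.47 ± 0.16 for HK1 and -0.45 ± 0.14 for GPI (SE; edgeR adjusted p = 0.13 and 0.123). All 3 were called lower by edgeR without shNC replicate 2, HK1 at -0.63 (adjusted p = 0.00184), GPI at -0.58 (adjusted p = 0.00282) and HK2 at -0.41 (adjusted p = 0.0102). That fit called 14.1% of all genes lower.

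Phosphofructokinase, the main control point of the pathway, is assembled from 3 kinds of subunit that differed in direction. PFKP, the platelet form, averaged 421 ± 8.56 CPM in shECM1 and 512 ± 80.0 CPM in shNC. It was called lower by edgeR without shNC replicate 2 (-0.39, adjusted p = 0.0109). PFKL, the liver form, averaged 286 ± 23.8 CPM in shECM1 and 327 ± 27.5 CPM in shNC. PFKM, the muscle form, had 106, 104 and 117 CPM in shECM1, against 89.5, 102 and 67.1 CPM in shNC, so that every knockdown library lay above every control. PFKM was the only glycolytic enzyme gene with separated groups in the upward direction (log2 fold change 0.34 ± 0.14 SE, edgeR adjusted p = 0.2), and without shNC replicate 2 it was called higher (0.49, adjusted p = 0.0193). Its exons overlap those of SENP1 on the other strand, whose log2 fold change was 0.18, and without stated strand counting their reads cannot be told apart.

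Of the enzymes that set the activator of phosphofructokinase, PFKFB4 averaged 74.3 ± 4.86 CPM in shECM1 and 101 ± 21.2 CPM in shNC, and its groups did not overlap. PFKFB3, the form with the strongest synthetic activity, averaged 58.8 ± 2.51 CPM in shECM1 and 74.6 ± 19.5 CPM in shNC, with shNC replicate 2 at 53.6 CPM, below every knockdown library. Both were called lower by edgeR without shNC replicate 2 (log2 fold change -0.56 with adjusted p = 0.00648 for PFKFB4, and -0.52 with adjusted p = 0.00657 for PFKFB3). The share of all genes called lower in that fit was 14.1%. PDK1 encodes a kinase that inhibits the pyruvate dehydrogenase complex and is a HIF target itself. PDK1 averaged 97.7 ± 5.87 CPM in shECM1 and 92.8 ± 8.99 CPM in shNC, a difference within the spread between libraries.

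**Figure D2:**
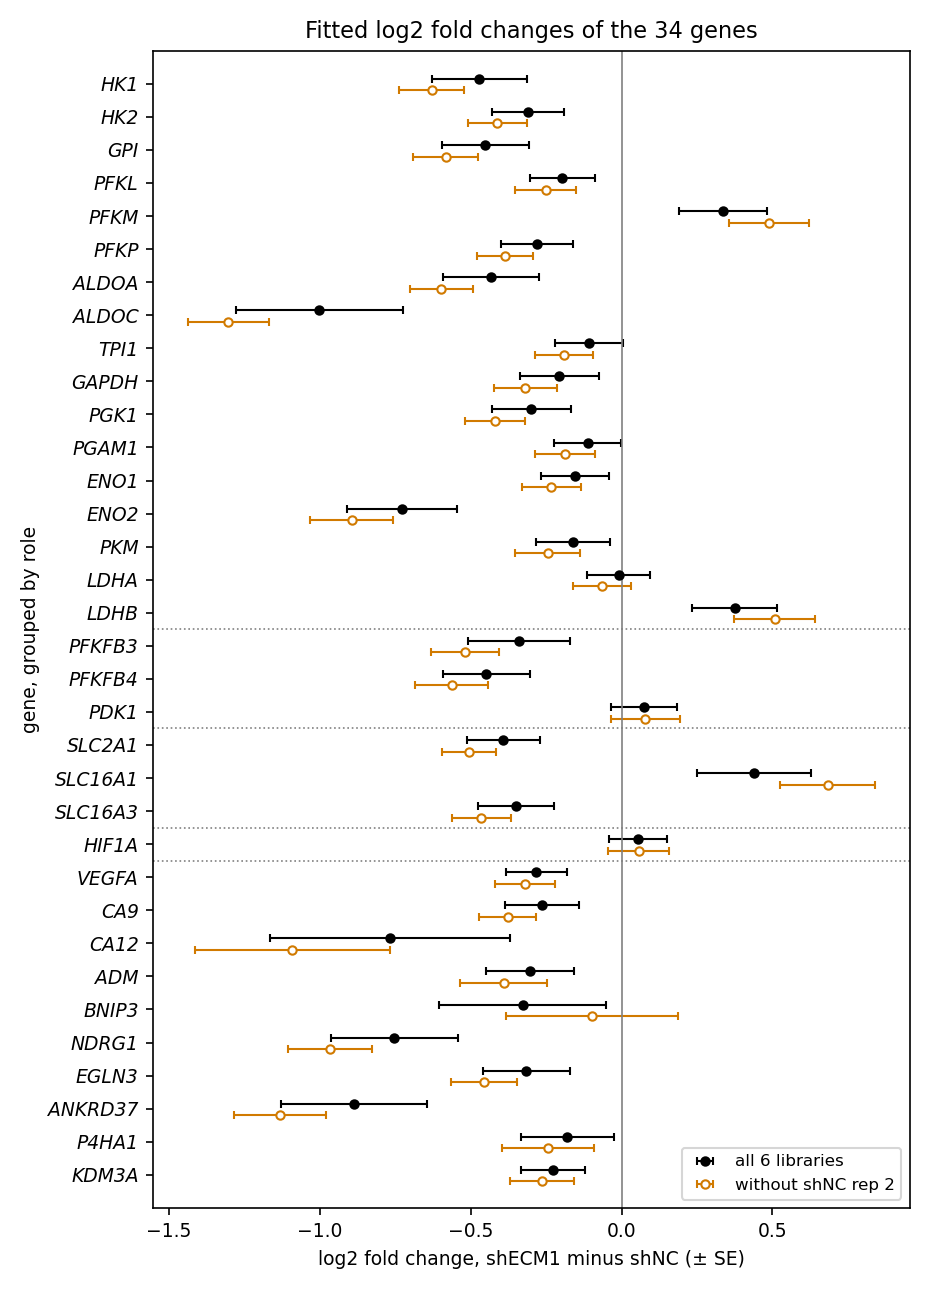
Log2 fold change (shECM1 minus shNC, horizontal axis) of each gene with its SE, from all 6 libraries (filled) and without shNC replicate 2 (open), in rows grouped by role. ALDOC, ANKRD37, NDRG1 and ENO2 lie farthest left among the well-counted genes, and PFKM, LDHB and SLC16A1 lie to the right of 0.

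Aldolase and enolase each have a main form and a form best known from brain, and the brain forms had the larger differences. ALDOC (chr17:28573115-28577264, minus strand) had 56.9, 64.6 and 54.3 CPM in shECM1, against 123, 60.3 and 169 CPM in shNC. shNC replicates 1 and 3 were far above the knockdown, while shNC replicate 2 lay inside its range. The fitted level was 2.003-fold lower (log2 fold change -1.002 ± 0.28 SE, edgeR adjusted p = 0.106), and without shNC replicate 2 it was -1.30 ± 0.14 (adjusted p = 0.000186). DESeq2 did not call it with all 6 libraries (adjusted p = 0.13). ALDOA, the main aldolase, averaged 1875 ± 94.3 CPM in shECM1 and 2531 ± 647 CPM in shNC, a log2 fold change of -0.43 ± 0.16 (SE). It too was called lower without shNC replicate 2 (-0.60, edgeR adjusted p = 0.0021).

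ENO2 (chr12:6913745-6923698, plus strand), also known as neuron-specific enolase, had 264, 241 and 195 CPM in shECM1, against 384, 283 and 492 CPM in shNC. Here every knockdown library was below every control, shNC replicate 2 included. DESeq2 called it lower (adjusted p = 0.0056), while edgeR gave a log2 fold change of -0.73 ± 0.18 (SE) with adjusted p = 0.0973, and -0.89 with adjusted p = 0.00105 without shNC replicate 2. ENO1, the main enolase, averaged 4636 ± 323 CPM in shECM1 and 5154 ± 624 CPM in shNC, with a log2 fold change of -0.15 ± 0.11 (SE).

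Fitted log2 fold changes ran from -0.30 in PGK1 to -0.11 in TPI1 and PGAM1 among 5 abundant enzymes of the lower pathway. GAPDH, often used as a reference gene, had 8458, 8950 and 9111 CPM in shECM1, against 10020, 8342 and 12240 CPM in shNC, and its control range enclosed the knockdown range. PGK1, the first step that yields ATP, averaged 5367 ± 195 CPM in shECM1 and 6602 ± 1263 CPM in shNC. TPI1, PGAM1 and PKM, an isomerase, a mutase and pyruvate kinase, had log2 fold changes of -0.11, -0.11 and -0.16. Of these 5, edgeR without shNC replicate 2 called PGK1 (-0.42, adjusted p = 0.0101) and GAPDH (-0.32, adjusted p = 0.0419) lower, where 14.1% of all genes were called lower. All 17 enzymes together held 3.41% ± 0.0613 of counts in shECM1 and 3.86% ± 0.485 in shNC (SD, n = 3 each), and shNC replicate 2, at 3.34%, lay below every knockdown library.

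The lactate dehydrogenase genes had unlike values. LDHA, whose subunit favours making lactate and which is a textbook HIF target, had 4320, 4454 and 3942 CPM in shECM1, against 4317, 3842 and 4633 CPM in shNC, and the groups overlapped throughout. Its log2 fold change was -0.0087 ± 0.10 (SE), and its sign turned under library-size scaling and on leaving out single libraries. LDHB, whose subunit favours turning lactate back into pyruvate, had 223, 227 and 168 CPM in shECM1, against 150, 184 and 143 CPM in shNC. Its log2 fold change was 0.37 ± 0.14 (SE; edgeR adjusted p = 0.158), and edgeR called it higher without shNC replicate 2 (0.51, adjusted p = 0.0172).

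**Figure D3:**
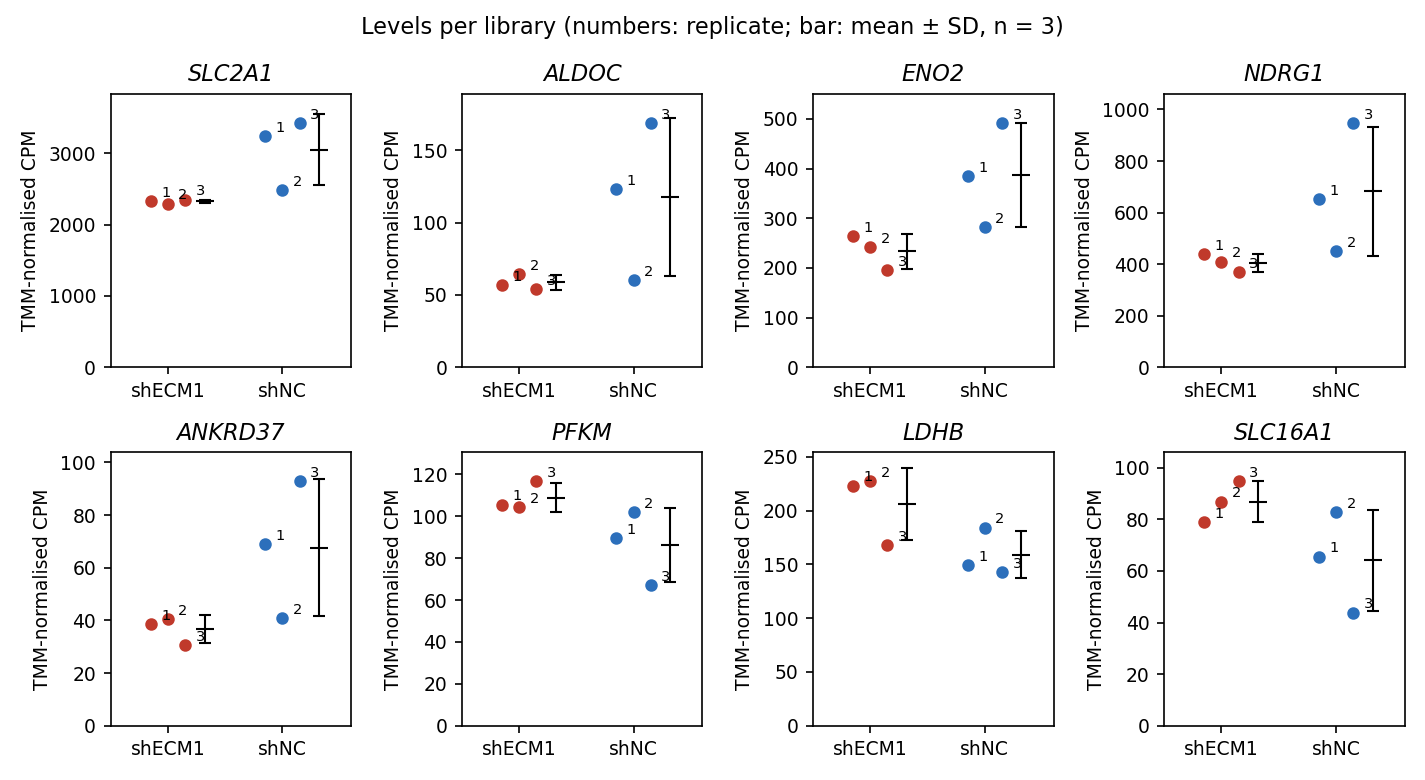
TMM-normalised CPM (vertical axes, from 0) of 8 genes in each shECM1 and shNC library, with replicate numbers beside the points and mean ± SD (n = 3) as bars. In the first 5 panels shNC replicate 2 is the lowest control, and in the panels of PFKM, LDHB and SLC16A1 it is the highest.

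HIF1A encodes the oxygen-regulated subunit of the factor. It had 191, 193 and 170 CPM in shECM1, against 178, 175 and 181 CPM in shNC, and the groups overlapped. Its log2 fold change was 0.054 ± 0.097 (SE), and 0.057 without shNC replicate 2. HIF1A is controlled mainly through protein stability, which these libraries do not measure.

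All 10 HIF targets outside sugar metabolism had a lower fitted level in shECM1, and their median log2 fold change was -0.31. NDRG1 (chromosome 8, 133237171 to 133302022, minus strand), a stress-responsive gene of growth and trafficking, had 438, 410 and 367 CPM in shECM1, against 651, 449 and 948 CPM in shNC. ANKRD37 (chr4:185396021-185400628, plus strand), an ankyrin-repeat gene, had 38.6, 40.6 and 30.5 CPM in shECM1, against 69.1, 40.9 and 92.8 CPM in shNC. In both genes every knockdown library was below every control, but by a narrow margin against shNC replicate 2. DESeq2 called both lower (adjusted p = 0.0104 for NDRG1 and 0.00779 for ANKRD37). The edgeR log2 fold changes were -0.75 ± 0.21 for NDRG1 and -0.89 ± 0.24 for ANKRD37 (SE), with adjusted p = 0.108 and 0.106. Without shNC replicate 2, edgeR called NDRG1 (-0.97, adjusted p = 0.000778) and ANKRD37 (-1.13, adjusted p = 0.000513) lower. ANKRD37 exons overlap those of UFSP2 on the other strand, whose log2 fold change was 0.084.

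Among secreted signals, VEGFA, the vascular growth factor, had 257, 245 and 283 CPM in shECM1, against 328, 296 and 331 CPM in shNC, with no overlap. Its log2 fold change was -0.28 ± 0.10 (SE; edgeR adjusted p = 0.148). ADM, the vasodilator peptide adrenomedullin, averaged 19.4 ± 1.22 CPM in shECM1 and 23.9 ± 3.57 CPM in shNC, also without overlap. KDM3A, a histone demethylase, averaged 126 ± 8.19 CPM in shECM1 and 147 ± 13.5 CPM in shNC, and it too separated, with a log2 fold change of -0.23 ± 0.11 (SE).

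CA9 and CA12 encode surface carbonic anhydrases that buffer acid. CA9 had 497, 488 and 515 CPM in shECM1, against 628, 489 and 684 CPM in shNC, with shNC replicate 2 inside the knockdown range. CA12 rested on 17 to 41 counts per library, and BNIP3, a mitophagy receptor, on 22 to 51, so their log2 fold changes (-0.77 ± 0.40 for CA12 and -0.33 ± 0.28 for BNIP3, SE) were poorly determined. EGLN3, an oxygen-sensing hydroxylase that HIF induces as feedback, averaged 54.8 ± 1.29 CPM in shECM1 and 68.2 ± 13.8 CPM in shNC. P4HA1, a collagen prolyl hydroxylase subunit, averaged 479.6 ± 97.5 CPM in shECM1 and 543 ± 74.5 CPM in shNC, with shECM1 replicate 3 at 367 CPM below the other knockdown libraries. Leaving out shNC replicate 2, edgeR also called VEGFA (-0.32, adjusted p = 0.0361), CA9 (-0.38, adjusted p = 0.013), CA12 (-1.09, adjusted p = 0.0287) and EGLN3 (-0.46, adjusted p = 0.0113) lower, but not ADM, BNIP3, P4HA1 or KDM3A. Of all genes, 14.1% were called lower in that fit.

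Set side by side, 15 of 17 glycolytic enzymes and 10 of 10 HIF targets outside metabolism were on the lower side. The medians were -0.21 for the enzymes and -0.31 for the targets, 0.10 apart, and without shNC replicate 2 they were -0.32 and -0.38, 0.066 apart. The gap was 0.036 without shNC replicate 1, 0.060 without shECM1 replicate 2 and 0.062 without shECM1 replicate 3. It was wider, at 0.134, without shECM1 replicate 1 and, at 0.14, without shNC replicate 3. Within each library, the median deviation of the enzymes minus that of the targets had a pooled within-group SD of 0.068. That SD describes single libraries and is not an SE of the gap. Ranges overlapped widely, from -1.002 to 0.37 in the enzymes and from -0.89 to -0.18 in the targets. By library, the median deviation of the enzymes from their gene means was -0.16, -0.14 and -0.10 in shECM1, against 0.16, -0.13 and 0.32 in shNC. For the targets it was -0.14, -0.21 and -0.20 in shECM1, against 0.27, -0.11 and 0.28 in shNC. In both gene groups shNC replicate 2 stood beside the knockdown libraries. No test was made of these medians, since the members were chosen with results of these data known.

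**Figure D4:**
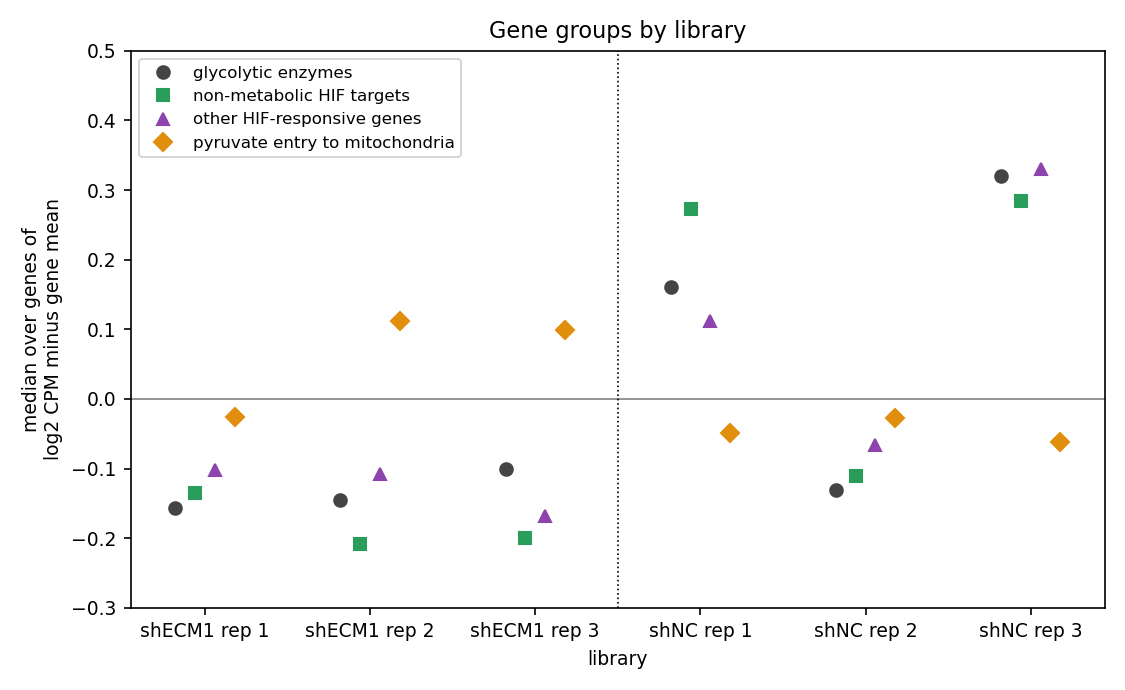
Median over genes of log2 CPM minus each gene's mean (vertical axis) in each library, for the 17 glycolytic enzymes, the 10 non-metabolic HIF targets, 31 other HIF-responsive genes and 11 genes of pyruvate entry. In shNC replicates 1 and 3 the first 3 groups lie above 0, and in shNC replicate 2 they lie below it with the shECM1 libraries.

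Ratios of related genes within a library do not depend on scaling. Of 9 ratios compared, ENO2/ENO1 was lower and PFKM/PFKL higher in every shECM1 library than in every shNC library. The log2 count ratio ENO2/ENO1 was -4.05, -4.24 and -4.68 in shECM1, against -3.79, -3.98 and -3.53 in shNC, a mean difference of -0.55. PFKM/PFKL was -1.36, -1.38 and -1.42 in shECM1, against -1.93, -1.53 and -2.36 in shNC, a mean difference of 0.55. In both cases the exact two-sided permutation test gave p = 0.1, the smallest that 3 against 3 allows, and p = 0.3 after Benjamini-Hochberg adjustment over the 9.

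**Figure D5:**
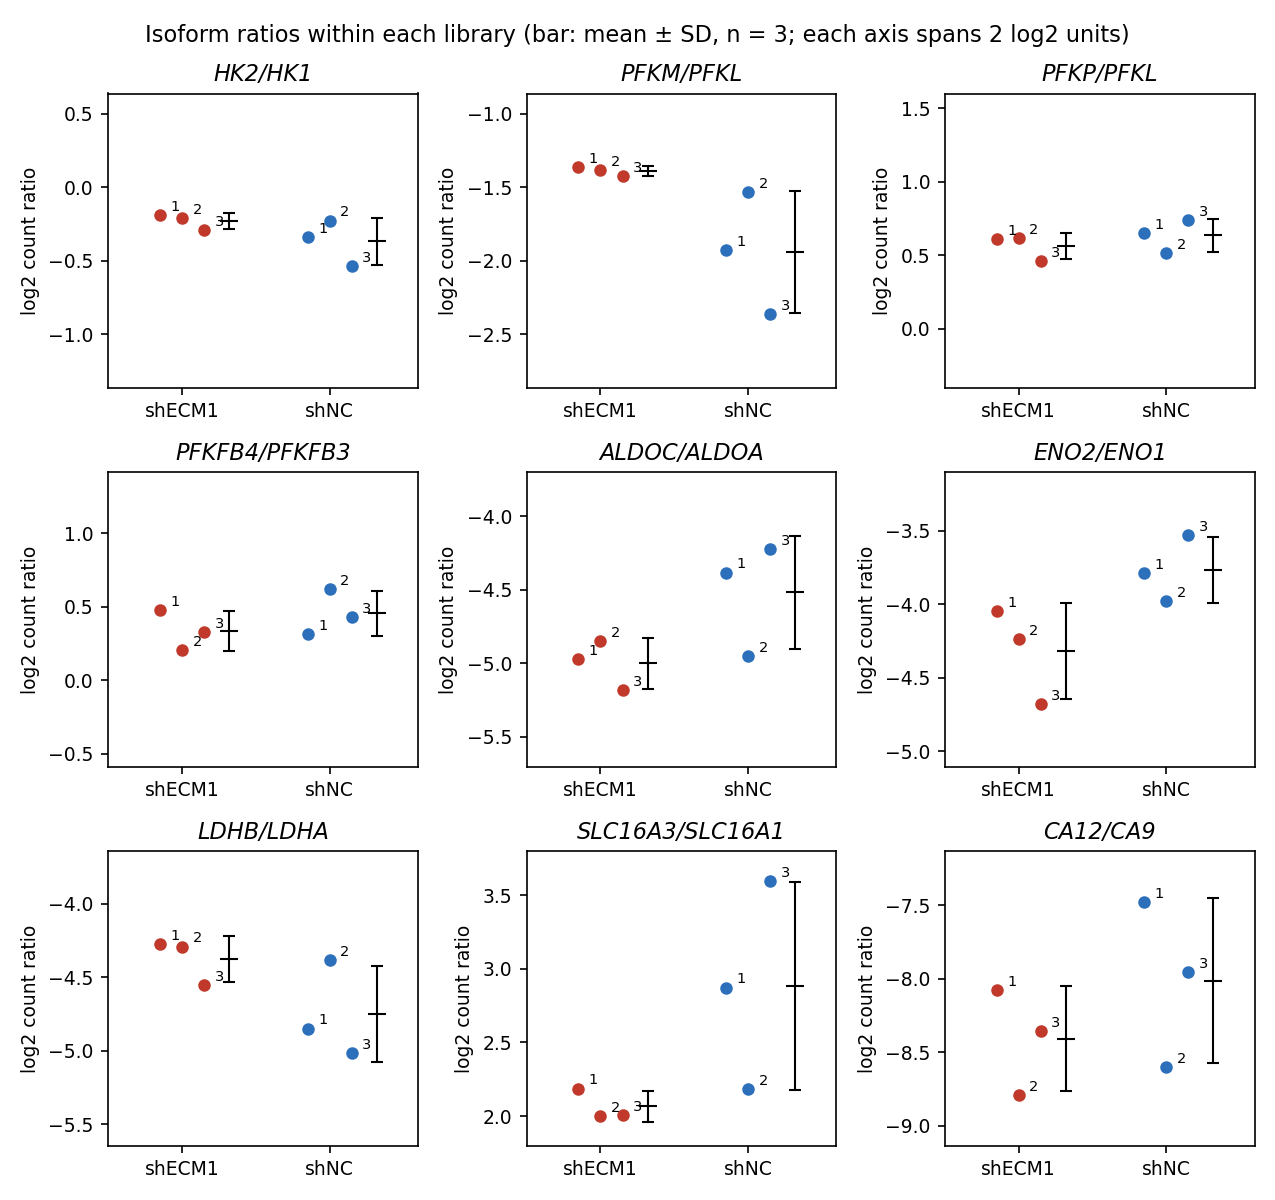
Log2 count ratio of 9 gene pairs (vertical axes, each spanning 2 log2 units) in each shECM1 and shNC library, with replicate numbers and mean ± SD (n = 3). PFKM/PFKL and ENO2/ENO1 separate the groups, and in SLC16A3/SLC16A1 the shNC libraries spread from 2.19 to 3.59.

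SLC16A3/SLC16A1 had the widest difference, with a mean log2 ratio of 2.07 ± 0.105 in shECM1 and 2.88 ± 0.705 in shNC (exact permutation p = 0.2, adjusted p = 0.3). LDHB/LDHA averaged -4.37 ± 0.156 in shECM1 and -4.75 ± 0.329 in shNC, and ALDOC/ALDOA averaged -5.00 ± 0.171 in shECM1 and -4.52 ± 0.383 in shNC (exact permutation p = 0.2 for each). HK2/HK1, PFKP/PFKL, PFKFB4/PFKFB3 and CA12/CA9 differed by 0.14, -0.07, -0.12 and -0.39 (exact permutation p of at least 0.2). For single genes, the groups did not overlap in 24.4% of all genes tested with all 6 libraries. Without shNC replicate 2, 8 of the 9 ratios did not overlap between the groups. Separation is easier there, since all shECM1 libraries lay below both shNC replicates 1 and 3 in 27.5% of all genes tested. They lay above both in a further 26.1%.

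Levels per length give the order of the genes in the cells, as CPM per kilobase of exonic sequence. GAPDH stood highest, at 2965 in shECM1 and 3422 in shNC, followed in shECM1 by PGK1 (974), ENO1 (879), TPI1 (792) and LDHA (683) CPM per kilobase. SLC2A1 reached 492 in shECM1 and 646 in shNC, and CA9, the highest HIF target outside metabolism, 299 in shECM1 and 359 in shNC. CA12 (0.2 in shECM1 and 0.338 in shNC) and BNIP3 (0.429 in shECM1 and 0.541 in shNC) were the lowest. Among paired forms LDHA stood far above LDHB (69.1 in shECM1 and 53.3 in shNC), and PFKP (87.1 in shECM1, 106 in shNC) above PFKL (32 in shECM1, 36.7 in shNC) and PFKM (14.9 in shECM1, 11.8 in shNC). If the libraries hold 3' ends only, which the labels leave undecided, division by length understates long transcripts.

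Other HIF-responsive genes, from a companion list of 33, were lower in 24 of the 31 tested, with a median log2 fold change of -0.28. BHLHE40, a transcriptional repressor, averaged 286 ± 6.07 CPM in shECM1 and 478 ± 138 CPM in shNC. DESeq2 called 4 of the 31 lower (5.08% of all genes were called lower), which were BHLHE40 and, chosen after their values were seen, LOXL2, DDIT4 and P4HA2 (log2 fold changes of -1.04, -0.58 and -0.51). TMEM45A and CITED2 were the highest-ranked on the upper side, at log2 fold changes of 0.50 and 0.15. At an unadjusted edgeR p under 0.05, 14 were lower and 1 was higher, against 14.2% of all genes lower and 8.31% higher. Without shNC replicate 2 the median was -0.34, and edgeR called 14 lower and 1 higher, BHLHE40 among the lower (-0.95, adjusted p = 0.000158). In that fit 14.1% of all genes were called lower and 9.73% higher.

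The oxygen-sensing machinery, which shares HIF1A with the 34 genes, had 9 of 15 tested genes on the lower side and a median log2 fold change of -0.05. EPAS1, the HIF2A subunit gene, averaged 7.83 ± 0.506 CPM in shECM1 and 13.5 ± 6.97 CPM in shNC, with shNC replicate 2 at 6.46 CPM. Without that library edgeR called EPAS1 lower (-1.11, adjusted p = 0.00193). VHL, which marks HIF for degradation, was at -0.19, and its partners ELOC and RBX1 were at 0.31 and 0.15.

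Routes that branch from or leave glycolysis were nearer 0. The list of pyruvate entry holds mitochondrial pyruvate carriers and the subunits, kinases and phosphatases of the pyruvate dehydrogenase complex. Of its 11 tested genes 7 were on the higher side, with a median of 0.11. DLAT and DLD, subunits of the pyruvate dehydrogenase complex, averaged 92.7 ± 2.15 and 145 ± 6.97 CPM in shECM1, against 67.3 ± 14.1 and 118 ± 9.09 CPM in shNC, and neither overlapped between the groups. DESeq2 called DLAT higher (adjusted p = 0.0472), where 1.03% of all genes were called higher. Without shNC replicate 2, edgeR called DLAT (0.65, adjusted p = 0.00196) and DLD (0.36, adjusted p = 0.0256) higher, where 9.73% of all genes were called higher. With all 6 libraries, PDK3 and PDP1 were at -0.38 and -0.22. In the pentose phosphate pathway, 3 of 8 tested genes were lower (H6PD at -0.40 among them) and 5 higher (RPIA at 0.37 and TALDO1 at 0.14). In gluconeogenesis, 6 of 7 were lower, with PC at -0.45, G6PC3 at 0.24 and PCK1 at -2.27 on levels of 0.38 ± 0.0902 CPM in shECM1 and 1.92 ± 1.27 CPM in shNC. Of other sugar-pathway isoforms 10 of 19 were tested, with ENO3 and PGAM2 at -0.31 and -0.26 and GALM and PGM2 at 0.47 and 0.086.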

How the data were processed

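The authors deposited 1 table of raw counts for the 6 libraries, with no values for single cells, and the submitters' processing notes name the builds GRCh38 and hg38 and the tools STAR, fastp, featureCounts, Seurat and DESeq2. The notes and labels used here do not name their versions, roles, annotation release or strand setting. The labels' protocols describe both total RNA extraction and droplet single-cell libraries, and each column was analysed as 1 library. Symbols were found for 20462 of 20476 identifiers, and coordinates and exonic lengths come from GENCODE release 29 (GRCh38).

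The count test was edgeR 4.0.16 under R 4.3.3 (filterByExpr, TMM, glmQLFit and glmQLFTest, no covariate), with Benjamini-Hochberg adjustment over 12576 genes and a threshold of 0.05. The SE is the size of the log2 fold change over the square root of F. Isoform ratios had 0.5 added to each count. DESeq2 1.42.0, limma-voom (limma 3.58.1), other scalings and filters, the replicate block and leaving out each library were alternatives. The procedure was tested on simulated data. All 34 members are named, and from each companion list the 2 genes of smallest unadjusted p in each direction. Some genes that this rule picks are not reported here. Members and lists were chosen with earlier results of these data known. The exons of 10 members overlap another gene in the table and 14 members have pseudogenes named after them (62 for GAPDH, 39 for BNIP3), so their counts are uncertain.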

Additional observations from a re-analysis of the deposited data

How the results depend on the processing

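The count of genes called by edgeR was 0 with all 6 libraries, 505 with no count filter, 713 by DESeq2 and 2686 by DESeq2 without shNC replicate 2, and leaving out 1 library gave 0 to 3037. Of the 34 genes, 0 were called with all 6 libraries, 4 with no count filter, 3 by DESeq2 and 21 by DESeq2 without shNC replicate 2, and leaving out 1 library gave 0 to 22. In both counts the upper value came without shNC replicate 2, and leaving out any other library gave 0. The number of isoform ratios that separated the groups was 2, and 2 to 8 on leaving out 1 library, with 4 without shECM1 replicate 3 and 8 without shNC replicate 2. Without shNC replicate 2, all shECM1 libraries lay below both other controls in 27.5% of genes tested and above both in 26.1%. The sign of LDHA turned with library size only (log2 fold change 0.020) and on leaving out shECM1 replicate 3 (0.042), shNC replicate 1 (0.0048) or shNC replicate 3 (0.056), with -0.065 without shNC replicate 2 (-0.072 by DESeq2), and no other member changed sign. The causes were not tested. The medians of the enzymes and of the HIF targets, and the gap between them, moved by less than the SD between libraries under the alternatives run. That SD describes single libraries and does not measure the stability of the gap, which was 0.10 with all 6 libraries. The gap ran from 0.036 to 0.14 on leaving out 1 library. With the replicate number as a block (replicate block), 0 of 12576 genes were called and the medians were -0.20 and -0.29. The labels state no pairing of the libraries. The deviations of same-numbered libraries from their group means correlated at -0.0575, -0.0407 and -0.168. Of the 3 shECM1 libraries, 0 correlated best with their own number. With 3 libraries per group, such correlations cannot decide whether the numbers pair the libraries. CA12 and BNIP3 are limited by depth.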
